A study of Mus musculus with 12 samples.

Results

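Liver RNA of mice refed with fructose was compared between 2 mice labelled MED13-LKO and 2 control mice. These 4 libraries were chosen from their labels and are 4 of the 12 in the series, in which both genotypes were also studied when fasted and after refeeding with sucrose, with 2 mice in each of the 6 groups. All mice were C57BL6J and 12 weeks old by their labels. The control mice carried floxed Med13 alleles (Med13 fl/fl), and the MED13-LKO mice are liver-specific knockouts of MED13, for which the study bred floxed mice with mice carrying Albumin-Cre. The albumin promoter drives Cre in hepatocytes, so other liver cells keep the gene, and whether the control mice carried Cre is not given in the sources used here. The fed mice had been fasted for 16 h and were then refed for 4 h with chow and water holding 30% fructose. The labels give no sex. The study names male mice for its metabolic tests and cultured hepatocytes but states no sex for the RNA-seq mice. Each group holds 2 mice, and the spread behind a p-value was pooled over the 12 mice in 1 fit of the 6 groups, so it covers these mice only and takes in the fasted and sucrose fed ones.

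Mediator is a large complex that passes signals from DNA-bound transcription factors on to RNA polymerase II. Its kinase module, built of MED13, MED12, cyclin C and CDK8 or CDK19, binds the core complex reversibly through MED13 and keeps the polymerase away from it while bound. In liver, fructose enters hepatocytes through GLUT2, is phosphorylated by ketohexokinase and split, and its carbon enters glycolysis, glucose production, glycogen and new fat below the main control point of glycolysis. Liver genes also follow growth hormone, whose receptor acts through JAK2 and STAT5B, induces the feedback inhibitors CIS and SOCS2, and in its male pulsatile pattern maintains male-biased genes and represses female-biased ones.

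The table gives normalized counts, and differences are given as log2 fold changes of MED13-LKO over control on the scale of log2(normalized count + 1), with a standard error (SE) and a Benjamini-Hochberg adjusted p from limma. A gene is called when its adjusted p is under 0.05. Summed over all genes, the normalized counts were 22330900 and 21062200 in the control mice and 17399000 and 17309200 in the MED13-LKO mice, and the control sums were the larger under the other diets too. Med13 itself (chr11:86267033-86357602, GRCm38) was at 607 and 778 in the control mice and at 681 and 1055 in the mice labelled MED13-LKO (log2 fold change 0.30, SE 0.20, adjusted p 0.402). It was at 674 and 796 against 808 and 899 when fasted and at 578 and 673 against 646 and 717 after sucrose. No fall of this RNA went with the MED13-LKO label. A value summed over a gene does not show the loss of single exons, so these values do not check the label. By Western blot, the study found MED13 and MED12 protein almost absent from MED13-LKO liver, and CDK8 and cyclin C reduced. MED13-LKO below means the libraries that carry the label. None of the 7 genes of the kinase module list was called. An unadjusted p under 0.05 was held by 2 of them, and by 2871 of all 12366 genes tested. With equal sums, a scaling described below, Med13, Med12l and Cdk8 were called higher. The hepatocyte markers, albumin among them, had by far the largest sum of all marker lists, which goes with the liver label.

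Of 12366 genes tested, 463 (3.74%) were called higher and 488 (3.95%) lower in MED13-LKO liver, 7.69% in all. An unadjusted p under 0.05 was held by 2871 of the 12366. Among 12096 protein-coding genes, 445 (3.68%) were higher and 477 (3.94%) lower. An absolute log2 fold change above 1 went with 362 of the calls (2.93% of all genes), 224 higher (1.81%) and 138 lower (1.12%). For 50.2% of all genes the mice of the 2 groups did not overlap (25% higher and 25.2% lower in MED13-LKO), so a lack of overlap alone is common here. The direction of the calls went with the level of the gene. Of the 221 most abundant genes, whose means reached 10000 normalized counts or more, 86 (38.9%) were called lower and 2 higher, and their median log2 fold change was -0.37. Of the 3508 genes with a mean under 100, 132 were called higher and 33 lower, with a median of 0.13. The deposited scaling holds the middle of the distribution fixed, and the median over all genes was -0.000321. When the libraries were instead scaled to equal sums, this median became 0.318, 3238 genes (26.2%) were called higher and 227 (1.84%) lower. The most abundant genes kept a negative median on that scale too (-0.05, with 20.8% called lower). Each list below is therefore given with its counts on both scales. The number of calls rests on single mice as well. Without MED13-LKO mouse 2 there were 328, without MED13-LKO mouse 1 467, without control mouse 1 610 and without control mouse 2 1056. With only the 4 fructose libraries in the fit there were 163.

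Of the 8 genes of fructose uptake and breakdown, 4 were called lower in MED13-LKO liver and none higher, where 3.95% of all genes tested were called lower. The list median was -0.53. These are abundant genes, with a median level of 6605. Means of at least 10000, where 38.9% of all genes were called lower, were held by 2 of the 8. At means from 1000 to under 10000, 9.52% of all genes were called lower. Tkfc, the triokinase that phosphorylates the glyceraldehyde released from fructose 1-phosphate, was at 10999 and 13379.9 in control liver and at 4498 and 5378 in MED13-LKO liver (log2 fold change -1.30, SE 0.22, adjusted p 0.00678). Slc2a2, which encodes GLUT2, was at 9222 and 10043 against 4464 and 4551 (log2 fold change -1.09, SE 0.22, adjusted p 0.0165). For both genes each MED13-LKO mouse was below each control mouse by more than the mice of a group differed. Sord, sorbitol dehydrogenase, which makes fructose from sorbitol, was at 38599 and 41514 against 28102 and 26636 (log2 fold change -0.55, adjusted p 0.00457). Glyctk, glycerate kinase, showed the smallest called change of the list, 6243 and 6428 against 4940.0 and 5111 (log2 fold change -0.33, adjusted p 0.0218). Khk, ketohexokinase, which opens the pathway, was at 1557 and 1996 against 1037 and 1369, without overlap but short of a call (adjusted p 0.144). With equal sums, Tkfc and Slc2a2 stayed called lower, Sord and Glyctk did not, and the list median was -0.21. Tkfc, Slc2a2 and Sord were also called lower in the fasted and in the sucrose fed mice. Of all genes, 4.86% and 3.33% were called lower there. The fasted and sucrose fed mice are other animals, but their calls rest on the same pooled spread. With 1 mouse left out at a time, the calls of Tkfc, Slc2a2 and Glyctk were lost in at least 1 of 4 fits (adjusted p up to 0.0503, 0.087 and 0.105, in this order).

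Of 15 glycolysis genes 2 were called lower, Pfkfb3 among them, and none higher. Pfkfb3, which makes the fructose 2,6-bisphosphate that activates phosphofructokinase, was at 842 and 419 against 254 and 230.3 (log2 fold change -1.29, adjusted p 0.0316), with the control mice themselves far apart. Pklr, the liver pyruvate kinase and a target of ChREBP, was at 7397 and 8376 against 4558 and 4808 and was not called (adjusted p 0.103). With equal sums Pfkfb3 was again called lower, while Pfkl, Aldoa, Tpi1 and Pgam1 were called higher. Pfkfb3 lost the call when 1 of the 4 mice was left out (adjusted p up to 0.154).

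The study asked how the kinase module bears on G6pc, the catalytic subunit of glucose 6-phosphatase, and on glycogen. By qRT-PCR normalized to Ppib, in larger groups of mice, it reported lower G6pc RNA in MED13-LKO than in control liver with fructose. It also reported glucose 6-phosphatase activity that followed this RNA, and lower G6pc RNA in cultured MED13-deficient hepatocytes. The RNA-seq values after fructose, from 2 mice per group, run the other way, and the reason was not tested. G6pc (chr11:101367561-101377903) was at 3665 and 7029.6 in the control mice and at 8529 and 9317 in the MED13-LKO mice after fructose. In the other groups it was at 7865 and 10424 (control) and 5887 and 9423 (MED13-LKO) when fasted, and at 3077 and 3178 and 5895 and 6498 after sucrose. The fructose difference was 0.81 on the log2 scale (SE 0.28, 95% interval 0.18 to 1.45) and did not pass the test (adjusted p 0.119), although both MED13-LKO mice were above both control mice. With equal sums it was 1.13 and passed (adjusted p 0.0211), and it also passed in the fit blocked by replicate number (adjusted p 0.0441). It ranged, over fits without 1 mouse, from 0.34, without control mouse 1, to 1.28, without control mouse 2, and passed in the latter fit only (adjusted p 0.0126). Pck1, phosphoenolpyruvate carboxykinase, spread over 7416 and 48079 in control and 15349 and 8275 in MED13-LKO liver and was not called (adjusted p 0.58), although it was called lower without control mouse 1 (log2 fold change -2.09, adjusted p 0.0398). Of the 12 genes of glucose release and gluconeogenesis, Fbp1, fructose 1,6-bisphosphatase, was the single call. It was at 16789.5 and 17748 against 10569 and 10239.9 (log2 fold change -0.73, SE 0.11, adjusted p 0.00487), and it remained lower with equal sums (adjusted p 0.0353).

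Glycogen genes were called in both directions. Of 19 tested, 3 were called lower and 1 higher, with a list median of -0.02. The shares over all genes tested were 3.95% lower and 3.74% higher. Ugp2, which makes the UDP-glucose that glycogen synthase uses, was at 11633 and 11466 in control and 6800.3 and 7683 in MED13-LKO liver (log2 fold change -0.68, adjusted p 0.00355). Pygl, the liver glycogen phosphorylase, was at 12065 and 13035 against 7138 and 8379 (log2 fold change -0.70, adjusted p 0.00806). Pgm1, a phosphoglucomutase, was at 2169.7 and 2303 against 170.3 and 999.5, with the MED13-LKO mice far apart from each other (log2 fold change -2.43, SE 0.60, adjusted p 0.0378). Ppp1r3c (chr19:36731731-36736653) encodes PTG, a scaffold that brings protein phosphatase 1 to glycogen synthase. It was higher in MED13-LKO liver, at 305 and 419.6 against 1025 and 1393 (log2 fold change 1.74, SE 0.37, adjusted p 0.0202). The sister scaffold Ppp1r3b was at 1401 and 1446 against 2122 and 1913 and was not called (adjusted p 0.294). Gys2, the liver glycogen synthase, was at 6729 and 5421 against 4755 and 5545 with overlapping mice (adjusted p 0.325). With equal sums, 2 genes of the list were called lower (Ugp2 and Pgm1) and 5 higher (Ppp1r3c, Ppp1r3b, Gbe1, Gaa and Gsk3b). Leaving out each mouse in turn ended the calls of Pygl, Pgm1 and Ppp1r3c at least once (adjusted p up to 0.0593, 0.109 and 0.135, in this order).

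**Figure D1:**
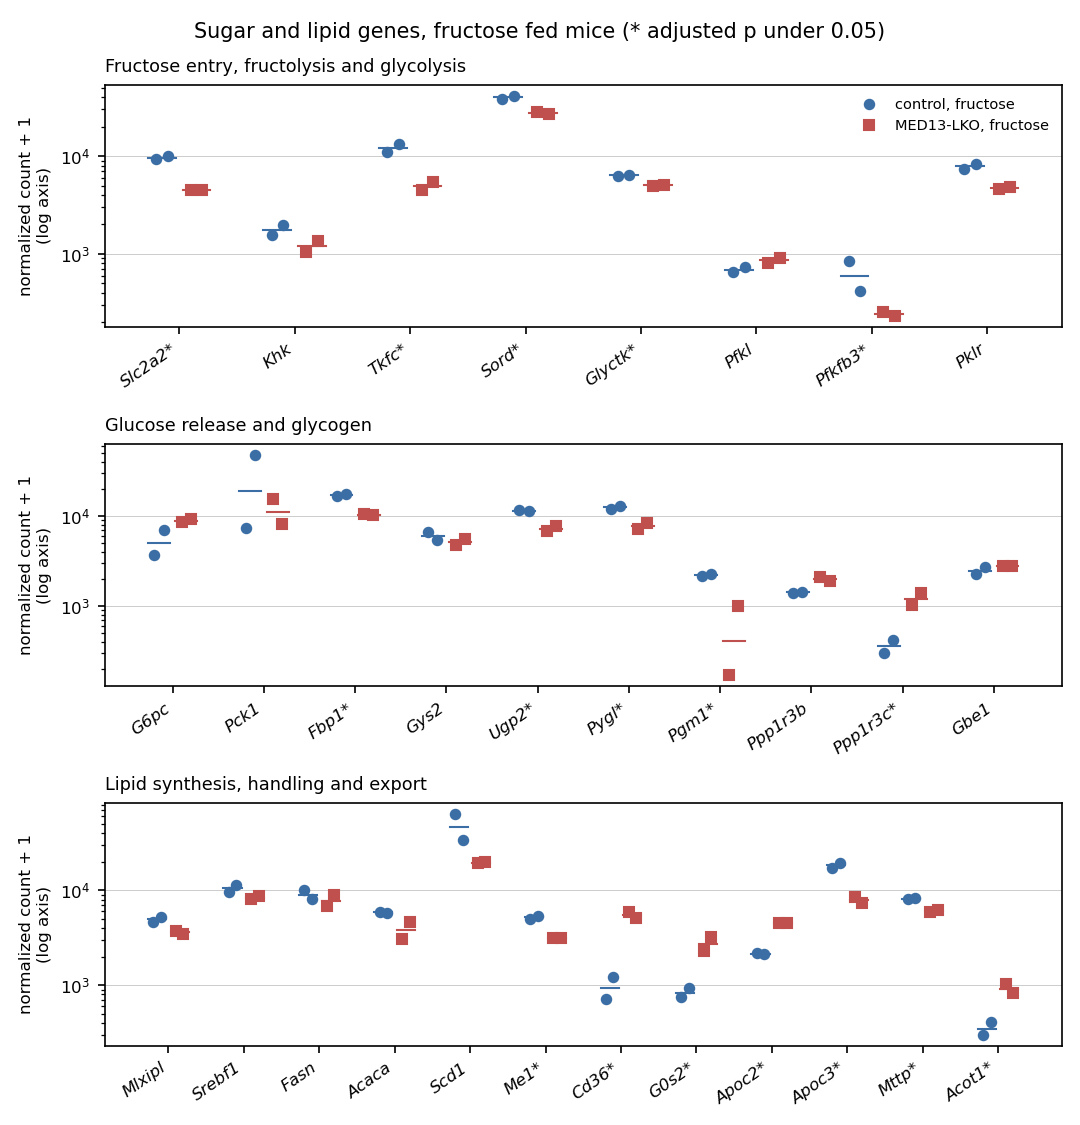
Normalized count plus 1 (log axis) of sugar and lipid genes in the 4 fructose fed mice. Each point is 1 mouse (circles, control; squares, MED13-LKO), the short line is the group mean on the log scale and a star marks an adjusted p under 0.05 from limma. Slc2a2 and Tkfc sit lower and Ppp1r3c, Cd36 and Apoc2 higher in both MED13-LKO mice, while the mice overlap for Fasn and Gys2.

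Of 15 genes of de novo lipogenesis, Me1, the malic enzyme that supplies NADPH, was called lower, at 4976 and 5381 against 3113 and 3133 (log2 fold change -0.73, adjusted p 0.0296), and it was not called with equal sums (adjusted p 0.11), where Slc25a1, Fads1 and Fads2 were called higher. Fasn, fatty acid synthase, was at 9981 and 8111 against 6768 and 9007 (log2 fold change -0.20, SE 0.37, adjusted p 0.793), and the groups overlapped. Scd1, stearoyl-CoA desaturase, was at 63815 and 34307 against 19399 and 19763, below the controls in both MED13-LKO mice, with the control mice far apart, and was not called (adjusted p 0.162). Of 13 lipogenic transcription factors and partners none was called by limma. An unadjusted p under 0.05 was held by 3 of the 13, and by 2871 of all 12366 genes tested. With equal sums Mlx, Mlxip and Nr1h3 were called higher. Mlxipl, which encodes ChREBP, was at 4668 and 5297 against 3731 and 3504 (log2 fold change -0.46, adjusted p 0.0641), and Srebf1 at 9605 and 11426 against 8034 and 8629 (adjusted p 0.503). The Mlxipl value does not separate the alpha and beta forms of ChREBP RNA, which the study measured apart. By qRT-PCR it reported that induction of Fasn, ChREBP-beta and Srebf1c with either sugar was suppressed in MED13-LKO liver. In the RNA-seq values of the sucrose fed mice, 7 of the 15 lipogenic genes were called lower, where 3.33% of all genes were. The genotype difference itself was compared between fructose and sucrose gene by gene: 6 of the 15 had an unadjusted p under 0.05, where 6.91% of all genes did, and none passed the adjustment. In fits without 1 of the mice, Me1 did not pass throughout (adjusted p up to 0.129).

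Cd36, the fatty acid translocase, was at 707 and 1236 in control liver and at 5842 and 5159.5 in MED13-LKO liver (log2 fold change 2.55, SE 0.21, adjusted p 0.000131), and was called higher under all 3 diets. It is a target of several nuclear receptors and was counted here among 27 PPAR alpha and fatty acid oxidation genes, of which 3 were called higher and none lower. The other 2 were the acyl-CoA thioesterases Acot1, at 301 and 405 against 1023 and 828 (adjusted p 0.0333), and Acot2, at 34.1 and 64.1 against 171 and 154 (adjusted p 0.00788). Cpt1a, which admits long-chain fatty acids to mitochondria, was at 5283 and 6049 against 5988 and 4338 (adjusted p 0.616). G0s2, an inhibitor of adipose triglyceride lipase, was at 744 and 927 against 2280.3 and 3249.8 (log2 fold change 1.71, adjusted p 0.0213), and Plin3, a lipid droplet coat protein, at 409 and 408 against 633 and 705 (adjusted p 0.0182). With Fitm1, which was called lower at 256 and 289.7 against 135 and 132 (adjusted p 0.0152), these were the 3 calls among 19 genes of triglyceride synthesis and lipid droplets. With equal sums 13 of the 27 PPAR alpha and oxidation genes and 7 of the 19 triglyceride genes were called higher. So were 26.2% of all genes. With 1 mouse left out at a time, the calls of Acot1, Acot2, G0s2, Plin3 and Fitm1 were lost in at least 1 of 4 fits (adjusted p up to 0.15 over these genes).

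Apolipoproteins of the C group were called in opposite directions. Apoc3, an inhibitor of lipoprotein lipase, was at 17116 and 19545 in control and 8489 and 7351 in MED13-LKO liver (log2 fold change -1.21, SE 0.12, adjusted p 0.000384). Apoc2, the activator of the same lipase, was at 2171 and 2134 against 4488 and 4486 (log2 fold change 1.06, SE 0.07, adjusted p 4.25e-05). The mice of each group lay close together for both genes. Of the 31-base stretches of Apoc2, 78.8% also occur in another annotated gene, so its value is uncertain. Mttp, the transfer protein that loads lipid onto apolipoprotein B, fell by 0.44 on the log2 scale (adjusted p 0.00435), Apoc1 by 0.48 and Apoa2 by 0.45. In all, 4 of 17 lipoprotein genes were called lower and 1 higher, and with equal sums Apoc3 was the single lower call and 4 genes were called higher. Means of at least 10000 were held by 8 of the 17, a level at which 38.9% of all genes were called lower. Apoc1 and Apoa2 lost the call when 1 of the 4 mice was left out (adjusted p up to 0.0934 and 0.196, in this order).

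Of 23 genes of cholesterol synthesis, 1 was called higher and none lower, with a list median of 0.08. With equal sums 4 were called higher, Srebf2, Hmgcs1 and Tm7sf2 among them. In the fasted mice 6 of the 23 were called lower (median -0.66) and in the sucrose fed mice 11 (median -0.85). Over all genes, 4.86% were called lower in the fasted and 3.33% in the sucrose fed mice. Hmgcs1, the cytosolic HMG-CoA synthase, was at 2755 and 2567 in control and 3642 and 2924 in MED13-LKO liver after fructose, against 4652 and 4629 and 2249 and 2760.1 after sucrose. Sqle, squalene epoxidase, was at 2098 and 1328 against 2060.2 and 1984 after fructose and at 2791 and 2765 against 1053 and 1310.0 after sucrose. For 16 of the 23 genes the genotype difference with fructose departed from the mean of the other diets at an unadjusted p under 0.05, which 8.07% of all genes did, and for none at an adjusted p under 0.05. Of 26 chaperone and stress genes of the endoplasmic reticulum, limma called 0 after fructose and 13 lower after sucrose. Over all genes, 3.33% were called lower after sucrose. With equal sums Atf6 was called higher after fructose. An unadjusted p under 0.05 after fructose was held by 6 of the 26, and by 2871 of all 12366 genes tested. The difference between fructose and sucrose had an unadjusted p under 0.05 for 8 of the 26, and for 6.91% of all genes. It had an adjusted p under 0.05 for none of the 26. Hspa5, the chaperone BiP, was at 58644 and 36913 in control and 27113 and 63915 in MED13-LKO liver after fructose, with wide and overlapping values in both groups.

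Of the 14 growth hormone signalling genes listed, 13 were tested, and Cish, Ghr and Igf1 were called lower in MED13-LKO liver. The share called lower over all genes tested was 3.95%. Cish (chr9:107296026-107302784), which encodes CIS and is a direct STAT5 target, was at 910.1 and 584 in the control mice and at 129 and 66.1 in the MED13-LKO mice (log2 fold change -2.97, SE 0.31, adjusted p 0.000521). Socs2 was at 908 and 317 against 171 and 124, lower in both MED13-LKO mice but short of a call (log2 fold change -1.88, SE 0.54, adjusted p 0.0643). Socs3, an inhibitor that cytokines and insulin also induce and that was listed with insulin signalling, was at 231 and 149 against 94.6 and 102 and was called (log2 fold change -0.91, adjusted p 0.0365), though not with equal sums (adjusted p 0.0626). Ghr, the growth hormone receptor, was at 11195 and 11046 against 7769 and 7326 (log2 fold change -0.56, SE 0.08, adjusted p 0.00295), and Igf1, the main endocrine product of the pathway, at 11551 and 10144 against 6463 and 6787 (log2 fold change -0.71, SE 0.10, adjusted p 0.00307). In both cases each MED13-LKO mouse was below each control mouse. For the kinase and the factor between them no difference was detectable on the deposited scale. Jak2 was at 332 and 257 against 279 and 339 and Stat5b at 677 and 1083 against 831 and 960.3, with overlapping mice. With equal sums Cish, Ghr and Igf1 were again called lower, and Jak2 and Prlr higher. Leaving out each mouse in turn ended the call of Socs3 at least once (adjusted p up to 0.176).

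The promoter of Cish is shown because it carries the type of sequence that STAT5 binds, and that of Socs3 because it holds a single copy. Both were taken from RefSeq on GRCm38.p6, and capitals mark matches to TTCNNNGAA, a palindrome that reads alike on either strand. The Cish window runs from 120 bases before to 29 after the annotated start (chr9:107296539-107296688, plus strand), with matches that begin at 0 and 11 bases from it. The Socs3 window (chr11:117969471-117969560, minus strand) has its match 154 bases before the start.
Cish: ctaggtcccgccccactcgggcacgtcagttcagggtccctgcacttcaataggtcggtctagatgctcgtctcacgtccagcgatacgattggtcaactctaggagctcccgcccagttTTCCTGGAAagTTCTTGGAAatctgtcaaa
Socs3: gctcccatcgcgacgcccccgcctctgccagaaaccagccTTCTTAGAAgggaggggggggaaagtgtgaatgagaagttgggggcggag
Of 27025 genes with a RefSeq promoter window of 300 bases, 9.55% held at least 1 match and 0.54% at least 2. Among the 12 tested growth hormone genes with a window, Cish and Bcl6 held 2 or more, and Igfals and Prlr 1. Ghr and Igf1 held none within these windows. Of 376 genes called lower that had a window, 12% held a match, against 6.94% of 346 called higher and 8.32% of all 9618 tested genes with a window. Of the tested male-biased genes 0 of 11 with a window held one, and of the female-biased genes 3 of 10. A match is a run of letters and not a measured binding site.

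Of 16 male-biased liver genes, 8 were called lower and none higher (list median -1.75), and with equal sums 10 were lower. Over all genes tested, 3.95% were called lower, and 1.84% with equal sums. Means of at least 10000 were held by 5 of the 16, a level at which 38.9% of all genes were called lower. Hsd3b5, a hydroxysteroid dehydrogenase of male liver, was at 4518 and 819.6 in control and 12.8 and 29.0 in MED13-LKO liver (log2 fold change -6.56, SE 0.71, adjusted p 0.000652). Selenbp2, a selenium-binding protein, was at 13872 and 1543 against 50.8 and 66.5 (log2 fold change -6.29, adjusted p 0.000905). Mup7, a major urinary protein, was at 467425 and 111473 against 649 and 4685 (log2 fold change -7.03, SE 0.81, adjusted p 0.000888). For all 3 genes control mouse 1 was several times above control mouse 2, and both were far above the MED13-LKO mice. Cyp2d9, a steroid hydroxylase, was more even, at 32821 and 26047 against 12727 and 15122 (log2 fold change -1.08, adjusted p 0.00395), and Slco1a1, an organic anion transporter, was at 12879.6 and 8485 against 2581 and 4400.4 (adjusted p 0.00788). Mup3, Mup20 and Serpina1e were the remaining calls. The 8 without a call included Cyp7b1, at 9859 and 2155 against 834 and 1534 (adjusted p 0.0524), and Cyp4a12a, at 6396 and 2930.4 against 4037 and 3328 with overlapping mice. In fits without 1 of the mice, Slco1a1, Mup20 and Serpina1e did not pass throughout (adjusted p up to 0.0503, 0.0683 and 0.0857, in this order).

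The major urinary protein genes are near-identical copies that carry pheromones into urine, and reads cannot be assigned safely between them, so their sum is given. The 21 protein-coding Mup genes of the table together held 1565250 and 661485 normalized counts in control liver and 102217 and 197800 in MED13-LKO liver. Of the 18 that were tested, 15 were called lower and none higher. The fall of this family made up 22.2% of the gap between the summed normalized counts of the 2 groups, but 13.8% without control mouse 1 and 28.4% without control mouse 2. The family was also lower in the fasted (1085640 and 1560370 against 154546 and 187782) and in the sucrose fed mice (682928 and 729253 against 132981 and 153151).

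Of 21 female-biased genes, 19 were in the table, 12 passed the filter on low values and 5 of these were called higher and none lower. The share called higher over all genes tested was 3.74%. The log2 fold changes of the 12 ran from -3.19 to 8.81 (median 0.83). For 1 of them both MED13-LKO mice were below both control mice, without a call. With equal sums Fmo2 was called higher too. Cyp2a4, a testosterone hydroxylase of female liver, was at 12.1 and 11.2 in control liver and at 6576 and 4895 in MED13-LKO liver (log2 fold change 8.81, SE 0.37, adjusted p 7.71e-07). Slc22a26, an organic anion transporter, was at 16.6 and 35.6 against 821 and 332 (log2 fold change 4.36, adjusted p 0.000518). Cux2, a female-specific repressor of male genes, was at 66.0 and 116 against 239 and 195 (log2 fold change 1.30, adjusted p 0.0119). Cyp2c69 and A1bg were the other calls. Several defining members stayed near the floor in all 4 mice: Sult3a1 was at 1.10 and 1.12 against 0 and 0 and Cyp2b13 at 0 and 0 against 1.97 and 1.07. The Y-linked genes Ddx3y (1530.2 and 1486 against 1739.7 and 1679) and Eif2s3y (1319.9 and 1186 against 1180.3 and 1043) were expressed in all 4 mice, and Xist was not among the genes given. Of the 4 sex chromosome genes tested, Uty was called higher, at 236 and 287 against 416 and 382 (adjusted p 0.0158), and with equal sums Ddx3y and Kdm5d too. With 1 mouse left out at a time, the calls of Cux2, Cyp2c69, A1bg and Uty were lost in at least 1 of 4 fits (adjusted p up to 0.119 over these genes).

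Of all 31-base stretches of Cyp2a4, 58.9% occur in other genes too, and of those of its near copy Cyp2a5, the coumarin hydroxylase, 54.6%. Their promoters are shown because they differ at few bases while the levels of the pair in control liver are far apart. The RefSeq windows (GRCm38.p6, plus strand, chr7:26306943-26307217 for Cyp2a4 and chr7:26835089-26835363 for Cyp2a5) differ at 5 of 275 aligned bases, in capitals, and are 98.2% identical.
Cyp2a4: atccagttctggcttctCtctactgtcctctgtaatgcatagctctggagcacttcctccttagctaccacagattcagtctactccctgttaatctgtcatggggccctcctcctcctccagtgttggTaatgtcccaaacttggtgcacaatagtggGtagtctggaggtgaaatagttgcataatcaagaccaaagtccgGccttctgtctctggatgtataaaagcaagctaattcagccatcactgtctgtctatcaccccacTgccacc
Cyp2a5: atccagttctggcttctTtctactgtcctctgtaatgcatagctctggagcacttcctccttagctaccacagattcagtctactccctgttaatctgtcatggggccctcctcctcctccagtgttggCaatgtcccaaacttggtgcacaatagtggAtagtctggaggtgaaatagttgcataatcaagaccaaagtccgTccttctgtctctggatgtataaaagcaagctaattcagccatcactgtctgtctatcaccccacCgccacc
Cyp2a5 was at 24988 and 39432 in control and 57420.0 and 48858 in MED13-LKO liver (log2 fold change 0.75, SE 0.20, adjusted p 0.0453). Estimated counts can be moved between such copies, and their sum does not depend on that. It was 25000.5 and 39444 in the control mice and 63996 and 53753 in the MED13-LKO mice, a mean ratio of 1.83, far below the ratio given by Cyp2a4 alone. Cyp2a5 lost the call when 1 of the 4 mice was left out (adjusted p up to 0.195).

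**Figure D2:**
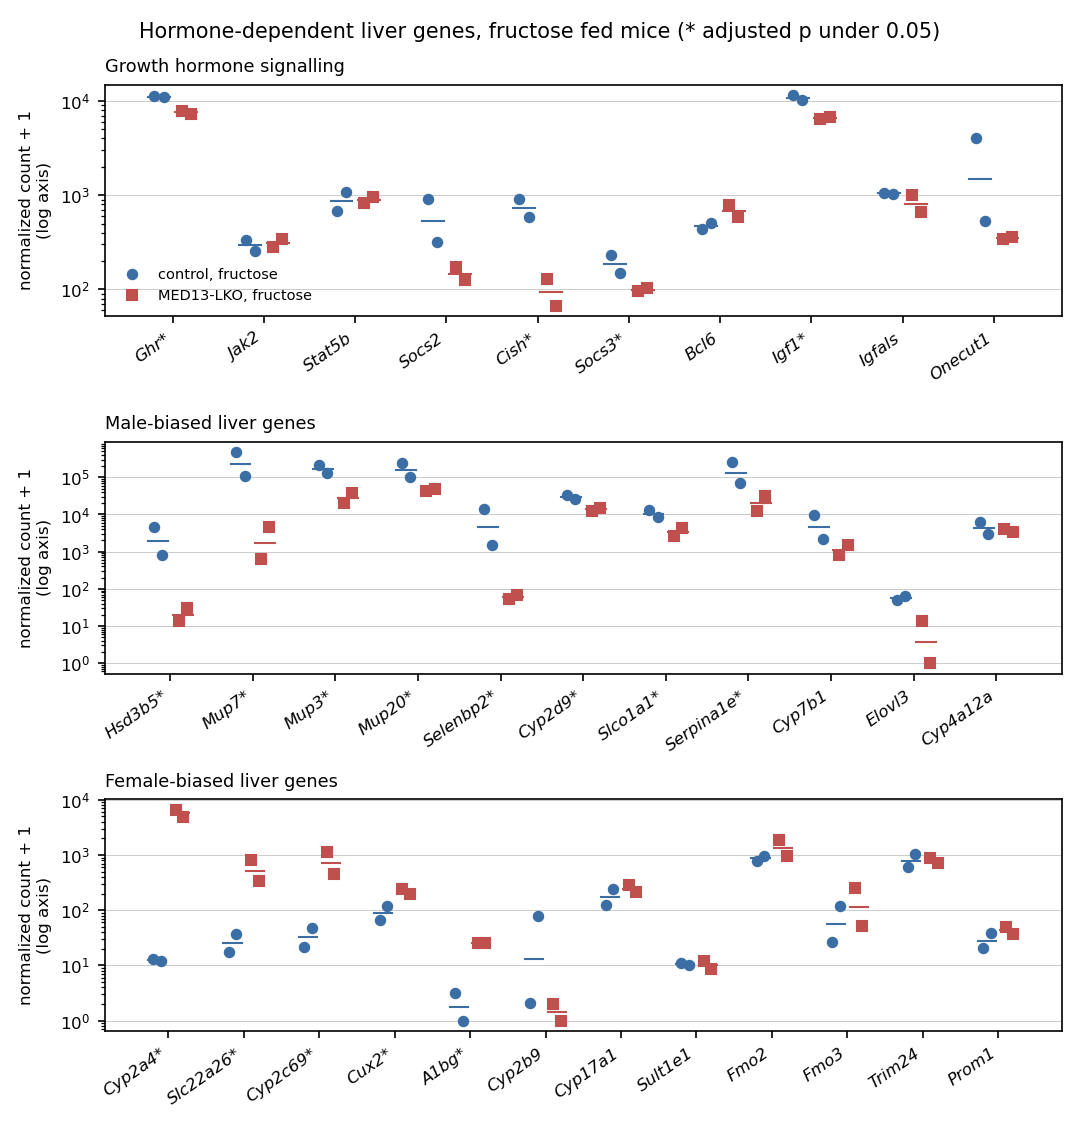
Normalized count plus 1 (log axis) of growth hormone signalling genes (with Socs3 of the insulin list) and of male-biased and female-biased liver genes in the 4 fructose fed mice, with 1 point per mouse (circles, control; squares, MED13-LKO), the group mean on the log scale as a short line, and a star for an adjusted p under 0.05 from limma. Cish, Hsd3b5, Mup7 and Selenbp2 are lower and Cyp2a4 and Slc22a26 higher in both MED13-LKO mice, and control mouse 1 is above control mouse 2 for most male-biased genes.

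Cish was also among the few genes whose genotype difference departed with fructose from that under the other diets. Of 12366 genes, 6 (0.0485%) had an adjusted p under 0.05 for the fructose difference minus the mean of the fasted and sucrose differences, and 998 (8.07%) had an unadjusted p under 0.05. The count of 6 was not stable: it was 1 in the fit blocked by replicate number, 1 with protein-coding genes alone, 0 among genes that share under 10% of their sequence, and with a mouse left out 3 (without MED13-LKO mouse 1) to 64 (without control mouse 2). The fit of genes sharing under 10% left out Cish, Phlda1, Fam177a, Nudt16l1 and Ighv1-50 beforehand, and of the 6 it held Pmaip1 only. Cish was at 103 and 129 (control) and 132 and 139 (MED13-LKO) when fasted and at 980.2 and 669.8 and 612 and 676 after sucrose. It was thus high in both genotypes after sucrose, and after fructose high in the controls only (departure -2.91, SE 0.38, adjusted p 0.0436). Phlda1, a growth factor-induced gene with a pleckstrin homology-like domain, followed the same order. It was at 2583 and 1677 against 426 and 433 after fructose, at 3135 and 2332 against 1775 and 2461 after sucrose and at 420.1 and 471 against 464 and 408 when fasted (departure -2.07, SE 0.27, adjusted p 0.0436). Against a single diet neither departure passed: for Cish the adjusted p was 0.0677 against the fasted and 0.0867 against the sucrose fed mice, and for Phlda1 0.0677 and 0.0775. Pmaip1, which encodes the cell death protein NOXA, was a low gene at 14.3 and 24.8 in the fructose fed controls and was listed at 0 in both fructose fed MED13-LKO mice, while the other 8 mice held 10.8 to 21.7 (adjusted p 0.0436). The other 3 were Fam177a and Nudt16l1, each listed at 0 in some pairs of mice and present in others, and the immunoglobulin segment Ighv1-50, for which the sucrose libraries stood apart, at 1.02 and 0 in control and 189.5 and 196 in MED13-LKO liver. Stretches shared with other genes made up 98.5% of Fam177a, 25.2% of Nudt16l1 and 69.2% of Ighv1-50. Over fits without 1 mouse, the plain fructose difference of Nudt16l1 ran from 2.67 to 2.98 and was not called throughout. The departures of single genes were not followed in those fits.

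Other genes had small unadjusted p-values for the same departure and did not pass the adjustment. Ppp1r3c was at 698 and 1086 against 2609.6 and 1084 when fasted and 821 and 606 against 740.1 and 774 after sucrose (unadjusted p 0.0229). Gadd45g, a stress-induced gene of the p53 list, was at 312 and 235 against 77.4 and 68.5 after fructose (log2 fold change -1.88, adjusted p 0.0433), with a departure at an unadjusted p of 0.00445. Slc22a7, an organic anion transporter, was at 298 and 261 against 45.3 and 94.5 after fructose (log2 fold change -2.07, adjusted p 0.00406) and at 226 and 223 against 134 and 138 after sucrose. Compared with sucrose alone, 13 genes departed (0.105%). Of these, Acsl3, a long-chain acyl-CoA synthetase, departed by 1.31 (adjusted p 0.0151). It was at 1069 and 1079.8 against 899 and 975 after fructose and at 1948 and 1715 against 580.2 and 712 after sucrose. In the same comparison Nnmt, which methylates nicotinamide, departed by -1.07 (adjusted p 0.0151). Compared with the fasted mice, 3 genes departed (0.0243%, and 9.46% at an unadjusted p under 0.05). Of these, Paqr9, a membrane receptor of the progestin and adipoQ family, departed by -1.05 (adjusted p 0.0372). It was lower in MED13-LKO liver after fructose, at 5021 and 5213 against 3759 and 3890.5, and higher when fasted, at 1298 and 1411 against 2140.2 and 2038. With equal sums its fructose difference shrank from -0.42 to -0.10 (adjusted p 0.437). In fits without 1 of the mice, the plain fructose differences of Gadd45g (-2.08 to -1.68) and Paqr9 (-0.45 to -0.39) did not pass throughout. Their departures were not followed in those fits.

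**Figure D3:**
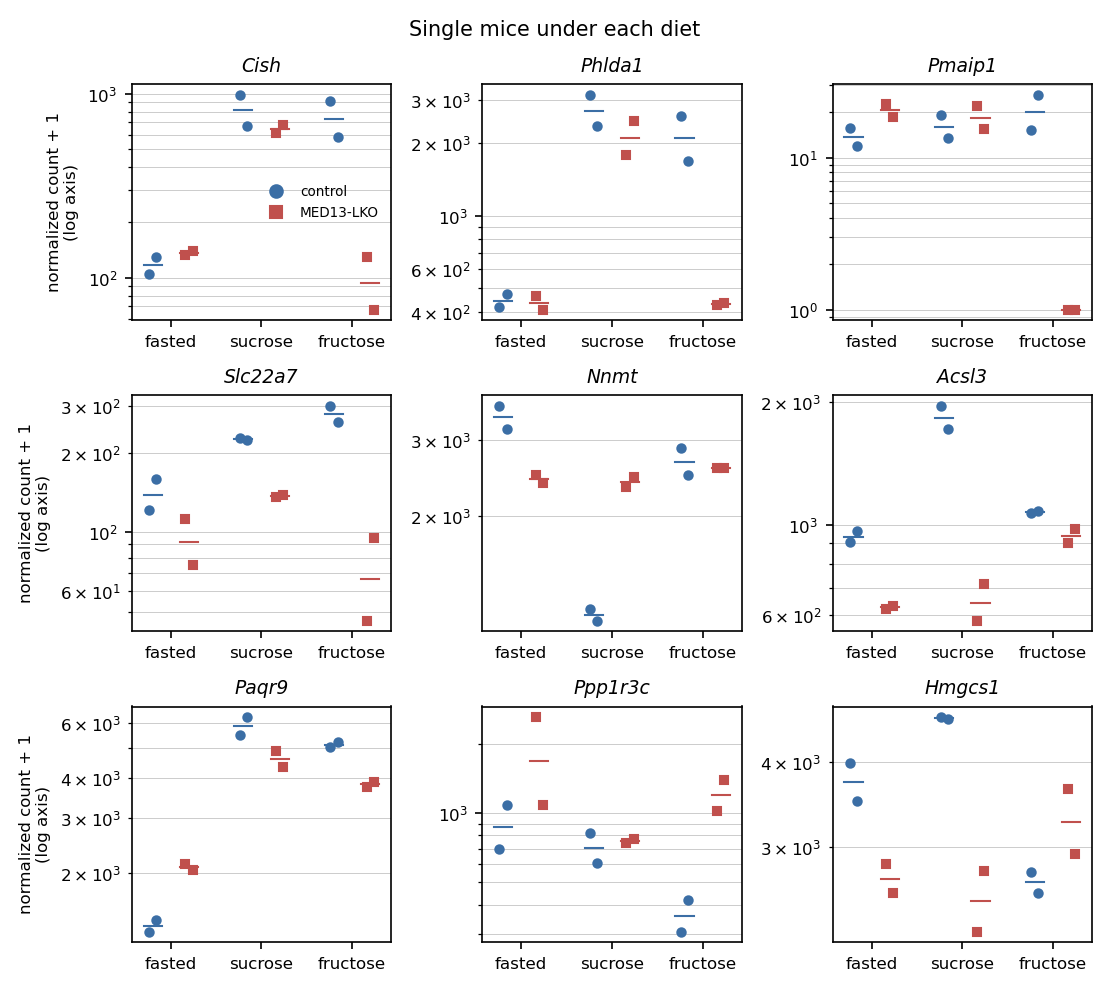
Normalized count plus 1 (log axis) of 9 genes in the 12 mice, by diet, with control mice as circles, MED13-LKO mice as squares and the group mean on the log scale as a short line. Cish and Phlda1 are high in both genotypes after sucrose, and after fructose high in the control mice and near the fasted level in the MED13-LKO mice.

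Of 23 bile acid genes, 8 were called lower and 1 higher (median -0.38), and 4 were lower and 3 higher with equal sums. The shares over all genes tested were 3.95% lower and 3.74% higher. Means of at least 10000 were held by 4 of the 23, a level at which 38.9% of all genes were called lower. Slc27a5, the bile acid-CoA ligase, was at 21150.0 and 19909 against 11757 and 11343 (log2 fold change -0.83, SE 0.07, adjusted p 0.000203). Abcg5, a subunit of the canalicular sterol pump, was at 1384 and 1969 against 841 and 804 (adjusted p 0.0043), and its partner Abcg8 was called lower too (adjusted p 0.0316). Slco1b2, a sinusoidal uptake carrier, Cyp27a1, the sterol 27-hydroxylase, and Nr1h4, the bile acid receptor FXR, fell by 0.74, 0.53 and 0.59 on the log2 scale, and of these Cyp27a1 and Nr1h4 were not called with equal sums (adjusted p 0.105 and 0.0922). Abcc4, a basolateral export pump, was the higher gene, at 55.9 and 41.2 against 189 and 117 (log2 fold change 1.61, adjusted p 0.0147). With 1 mouse left out at a time, the calls of Abcg8, Slco1b2, Cyp27a1, Nr1h4 and Abcc4 were lost in at least 1 of 4 fits (adjusted p up to 0.132 over these genes).

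Among 20 xenobiotic cytochromes and sensors, 9 were called lower and 2 higher (median -0.53), and 4 and 3 with equal sums. Means of at least 10000 were held by 7 of the 20, a level at which 38.9% of all genes were called lower. Cyp2c50 was at 24412 and 25964 against 9659 and 8725 (log2 fold change -1.46, SE 0.11, adjusted p 9.43e-05), Cyp2c37 at 8132 and 11205 against 2935 and 2095, and Cyp2c54 at 8789 and 10768 against 3369.6 and 2846. These copies share sequence, 29.2% of it for Cyp2c50 and 47.4% for Cyp2c37. Cyp2c55 went the other way, at 61.6 and 51.7 against 286 and 343 (log2 fold change 2.45, adjusted p 0.00028). Por, the reductase that serves all of these enzymes, was at 7829.8 and 9193 against 6498 and 5227 (adjusted p 0.0199) and was not called with equal sums. Por lost the call when 1 of the 4 mice was left out (adjusted p up to 0.135).

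Amino acid catabolism and the urea cycle had 10 of 28 genes called lower and none higher on the deposited scale (median -0.37), but 3 lower and 3 higher with equal sums. Means of at least 10000, where 38.9% of all genes were called lower, were held by 10 of the 28. So they were by 6 of the 12 periportal genes below. Cps1, the first enzyme of the urea cycle, was at 109848 and 92423 against 64106 and 58890.3 (log2 fold change -0.71, adjusted p 0.0134). Oat, ornithine aminotransferase, was at 16967 and 15634 against 10579 and 9535 (adjusted p 0.00395), and Hgd, homogentisate dioxygenase, at 10050.3 and 10081 against 7014 and 6531 (adjusted p 0.00232). All 3 stayed lower with equal sums. In zonation lists, 5 of 14 pericentral genes were called lower, among them Glul, glutamine synthetase, at 14482 and 15465 against 9781 and 8662 (adjusted p 0.0048), and so were 3 of 12 periportal genes. Pigr, the polymeric immunoglobulin receptor, at 22607 and 24722 against 9310.4 and 7669 (log2 fold change -1.48, SE 0.12, adjusted p 9.43e-05), and Cyp2f2, at 21548 and 21005 against 12787 and 13079.5 (adjusted p 0.00117), were the other 2 beside Cps1. With equal sums Glul, Slc1a2 and Gulo of the pericentral and all 3 of the periportal genes stayed lower, and Cyp1a2, pericentral, was called higher. Leaving out each mouse in turn ended the calls of Cps1 and Gulo at least once (adjusted p up to 0.0974 and 0.0619, in this order).

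Of 28 acute phase and complement genes, 9 were called lower and none higher, against 4 lower and 5 higher with equal sums. Means of at least 10000 were held by 13 of the 28, a level at which 38.9% of all genes were called lower. C8a, a subunit of the membrane attack complex, was at 17964 and 9964 against 4071 and 5331 (log2 fold change -1.52, SE 0.24, adjusted p 0.00546), and Serpina3n, an acute phase protease inhibitor, at 9853 and 9118 against 5197 and 5129 (adjusted p 0.0017). Of 27 genes of antigen presentation and the interferon response, 8 were called higher and none lower (median 0.48), and 13 were higher with equal sums. Over all genes tested, 3.74% were called higher, and 26.2% with equal sums. Oasl1, an interferon-induced regulator of IRF7 translation, was at 85.7 and 74.4 against 222 and 305 (log2 fold change 1.69, SE 0.21, adjusted p 0.00123). Usp18, the protease that removes ISG15, was at 141 and 144 against 246 and 297 (adjusted p 0.0161), Irf7 at 378 and 326 against 536 and 688 (adjusted p 0.022), and Psmb8, an immunoproteasome subunit, at 189 and 161 against 269 and 399 (adjusted p 0.0253). Tap1, Tap2, H2-D1 and Gbp3 were the other 4. In fits without 1 of the mice, Usp18, Irf7, Psmb8, Tap1, Tap2, H2-D1 and Gbp3 did not pass throughout (adjusted p up to 0.285 over these genes).

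Few markers of other liver cells were called. In bulk RNA, fewer cells of a type and less RNA per cell cannot be told apart. Among 9 Kupffer cell and macrophage markers, 2 were called higher (7 with equal sums): Cd5l, at 1314 and 1193 against 1905 and 2329.9 (adjusted p 0.0119), and Marco, at 105 and 166 against 263 and 321 (adjusted p 0.0197). The summed level of that list was 6182 and 5170.1 in control and 6968 and 7577 in MED13-LKO liver. The lymphocyte list summed to 249.9 and 262.7 against 369 and 393, with 0 of its 3 tested members called (2 at an unadjusted p under 0.05). Both sums were higher in the MED13-LKO mice, as were the antigen presentation genes called, and their part in that result was not tested. By limma no sinusoidal endothelial, cholangiocyte, neutrophil or red cell marker was called (0, 2, 0 and 4 at an unadjusted p under 0.05). Over all 12366 genes tested, 2871 had an unadjusted p under 0.05. With equal sums 4 endothelial markers and the cholangiocyte marker Krt7 were called higher. Des, of the stellate cell list, was called lower, at 144 and 199 against 74.7 and 106 (adjusted p 0.0359), and was not called with equal sums. The hepatocyte markers summed to 2347920 and 2461400 against 1737620 and 1798630, with 3 of 7 called lower on the deposited scale and 2 with equal sums. All 7 had means of at least 10000, a level at which 38.9% of all genes were called lower, and 20.8% with equal sums. With 1 mouse left out at a time, the calls of Cd5l, Marco and Des were lost in at least 1 of 4 fits (adjusted p up to 0.096, 0.134 and 0.185, in this order).

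The redox genes gave 2 higher calls and 1 lower among 22 tested, and 6 higher with equal sums. Nnt, the mitochondrial transhydrogenase that makes NADPH, was at 529 and 969 in control and 2617 and 3341 in MED13-LKO liver (log2 fold change 2.05, SE 0.23, adjusted p 0.000888), and it was called higher under all 3 diets. The C57BL/6J substrain is known for a deletion within Nnt, and whether the 2 groups carried the same allele was not tested. Srxn1, sulfiredoxin, an NRF2 target, was at 362 and 337 against 830.0 and 677 (log2 fold change 1.10, adjusted p 0.00222). Cat, catalase, was the lower call, at 41765 and 49672 against 32801 and 28163 (adjusted p 0.0174). Cat lost the call when 1 of the 4 mice was left out (adjusted p up to 0.128).

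Insulin signalling genes gave 3 calls of 14, where 7.69% of all genes tested were called. Trib1, a pseudokinase that targets C/EBP alpha for degradation, was at 871 and 1038 against 494 and 444 (log2 fold change -1.02, adjusted p 0.00222), and Trib3, a related pseudokinase, was higher (log2 fold change 1.16, SE 0.31, adjusted p 0.0491). The third was Socs3. With equal sums Trib1 was again lower, and Trib3 and Irs1 were higher. For Insr, Irs1, Irs2 and Foxo1 the mice of the groups overlapped. Of 18 clock genes Nr1d1, the repressor REV-ERB alpha, was called lower, at 463 and 509 against 331 and 169 (adjusted p 0.0438), but not with equal sums, where Cry1, Cry2 and Bhlhe41 were called higher. Of 21 genes of proliferation and the p53 response, Gadd45g was called lower, and Mcm6, a subunit of the replicative helicase, was called higher, at 39.6 and 43.9 against 100.4 and 125 (adjusted p 0.00801). With equal sums Myc was lower beside Gadd45g, and 6 genes of that list were higher. No heat shock or cold-inducible gene of 16 was called with fructose by limma (0 at an unadjusted p under 0.05), and 5 were higher with equal sums. Leaving out each mouse in turn ended the calls of Trib3, Nr1d1 and Mcm6 at least once (adjusted p up to 0.224, 0.203 and 0.0716, in this order).

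**Figure D4:**
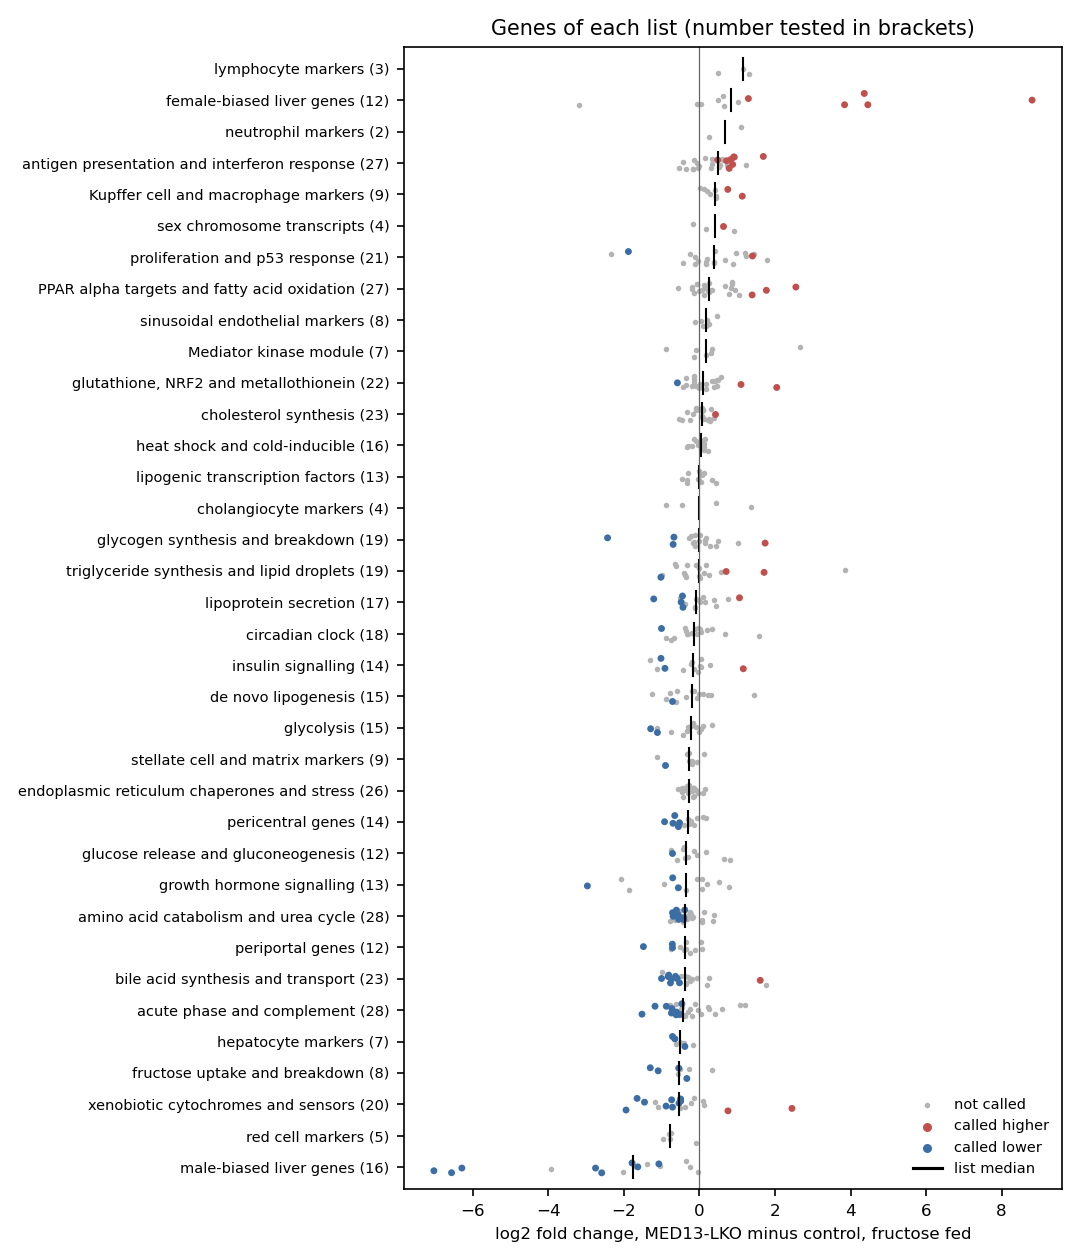
Log2 fold change of MED13-LKO over control with fructose for the tested members of 36 gene lists, on the deposited scale. Each point is a gene, coloured if called (red, higher; blue, lower) and grey if not, and the black line is the median of the list. The male-biased list has the lowest median (-1.75), and the antigen presentation list holds 8 calls, all higher.

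The protein-coding genes with the largest changes were taken as well, 15 in each direction, from the called genes in which the mice of the 2 groups were fully separate. In the lower group, 8 of the 15 were Mup genes, with Hsd3b5 and Selenbp2 beside them. Rps26, a ribosomal protein gene, was at 3265 and 2629 against 54.3 and 69.9 (log2 fold change -5.55, SE 0.18, adjusted p 2.95e-07). Summed with its copy Rps26-ps1 it was at 3266 and 2629 against 1326 and 1392, a smaller difference than the gene alone gives. Nlrp12, an inflammasome receptor, was at 113 and 104 against 0 and 1.07, and Adgrf1, an adhesion receptor, at 159 and 19.1 against 4.92 and 1.07. In the higher group, after Cyp2a4, came Cox6b2, the testis form of a cytochrome oxidase subunit, at 0.993 and 2.01 against 356 and 274 (adjusted p 3.99e-05), and Cyp2c40, at 7.92 and 27.6 against 2995 and 1234. Igsf23, of the immunoglobulin superfamily, was at 7.70 and 8.99 against 327 and 293, and Acot6, a further acyl-CoA thioesterase, at 1.10 and 1.13 against 34.5 and 62.2. Lamb3, a laminin chain, and Evc2, a ciliary protein, were also among them. Of the 30 genes, 16 were called in the same direction in both the fasted and the sucrose fed mice, 5 of the higher and 11 of the lower. More than 30% of the sequence was shared with other genes for 10 of the 15 lower and 4 of the 15 higher genes. Cyp2c40 (72.6%) was among the latter. Egfr, the receptor of epidermal growth factor, was called lower outside these 30, at 16349.7 and 5156 against 2024 and 2669.8 (log2 fold change -1.98, adjusted p 0.0234), with control mouse 1 far above control mouse 2. It and Slc22a7 were chosen after their values were seen. In fits without 1 of the mice, Adgrf1, Cyp2c40, Lamb3 and Egfr did not pass throughout (adjusted p up to 0.153 over these genes).

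The fasted and the sucrose fed mice supplied no library to the fructose difference itself. The spread behind each p-value was pooled over all groups in 1 fit, so calls under different diets are not independent of each other. With only the 4 fructose libraries in the fit, 163 genes were called with fructose in place of 951. Of the 463 genes called higher with fructose, 94.2% had a positive difference in the fasted mice and 96.3% in the sucrose fed mice, and of the 488 called lower, 90.8% and 95.3% had a negative one. The same share over all genes was not computed. The difference went with level under each diet. Its median with fructose, fasted and sucrose was -0.37, -0.36 and -0.29 for the 221 most abundant genes. For genes with means under 100 it was 0.13, 0.11 and 0.15. In the fasted mice 4.12% of all genes were called higher and 4.86% lower, and in the sucrose fed mice 2.7% and 3.33%. In the fasted mice 470 of the 951 were also called in the same direction, in the sucrose fed mice 422, in both 326 and in neither 385. Of the 951, 4 were called in the opposite direction under another diet: Nudt16l1, Rprd2 and Gripap1, higher with fructose, and Paqr9, lower. Gripap1 was named after its values were seen, and its fructose call was lost in each of the 4 fits without 1 mouse (adjusted p up to 0.207). The sizes were smaller under the other diets. The median difference of the genes called higher was 0.97 with fructose, 0.60 when fasted and 0.62 after sucrose, and that of the genes called lower was -0.65, -0.49 and -0.44. The genes were chosen by their fructose values, which favours larger differences with fructose.

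**Figure D5:**
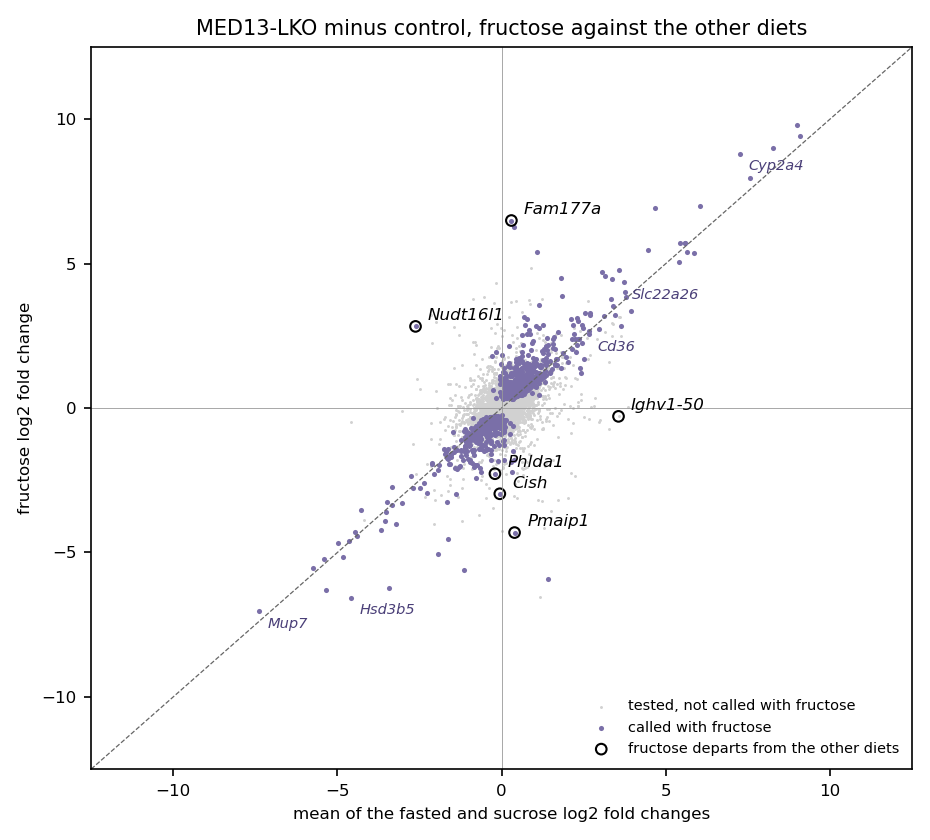
Log2 fold change of MED13-LKO over control with fructose (vertical) against the mean of the fasted and sucrose log2 fold changes (horizontal) for the 12366 genes tested. Genes called with fructose are violet, the dashed line marks equal differences, and the 6 ringed genes departed from the other diets at an adjusted p under 0.05. Mup7 and Hsd3b5 are negative and Cyp2a4 positive on both axes, while Cish and Phlda1 lie below it near a horizontal value of 0.

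Within a genotype, fructose against the fasted state gave, in control mice, 345 genes higher (2.79%) and 347 lower (2.81%), and in MED13-LKO mice 364 higher (2.94%) and 443 lower (3.58%). Of 15 lipogenic genes 6 were called higher with fructose in control mice and 5 in MED13-LKO mice. Of the endoplasmic reticulum list, 5 were higher and 1 lower in MED13-LKO mice, and 1 higher and 1 lower in control mice. Heat shock and cold-inducible genes gave 1 call higher in control and 6 in MED13-LKO mice. Amino acid catabolism gave 12 lower calls in control and 6 in MED13-LKO mice. The counts of the 2 genotypes were not tested against each other, and the fasted mice were killed at another time of day than the fed mice.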

How the data were processed

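Liver RNA-seq of 12 mice was used as deposited, 2 mice in each of 6 groups set by the labels. The authors trimmed paired reads (Trim Galore 0.6.5), estimated transcript abundance with kallisto 0.46.0 and normalized gene counts with DESeq2 1.24.0, and the submitters' notes name mm10. The deposited values are normalized counts, a signal with no raw depth, and their sums ran from 21062200 to 24152900 in control and from 17309200 to 18738600 in MED13-LKO libraries. Precision therefore rests on the spread between mice, pooled over the 6 groups. Of 16346 genes, the 12366 with a mean of at least 10 over all libraries were tested on log2(value + 1) with limma 3.58.1 (R 4.3.3; empirical Bayes with trend; 6 groups in 1 fit, residual degrees of freedom 6) and Benjamini-Hochberg adjustment. A log2 scale with a pseudocount of 1 understates changes of low genes. The script was tested on simulated data. Equal sums means that each library was rescaled to the same total. Coordinates and 31-base sequence sharing came from GENCODE M21 (GRCm38), with 16222 identifiers matched. Named genes were members of 36 lists (571 entries), called ones first, the 15 protein-coding genes with the largest change in each direction among those called at an absolute log2 fold change above 1 without overlap, genes departing from the other diets, and Med13 and G6pc. Some list members are counted but not reported here by name. The members and lists were chosen with earlier results of these data known. No source used here says that replicate numbers mark litters or batches. Other pseudocounts, filters, scalings, sample sets and blocks were tried. Figures were drawn with matplotlib 3.10.9.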

Additional observations from a re-analysis of the deposited data

Results flagged for a closer look

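These genes stood out because their genotype difference with fructose differed from that under another diet, by the limma test of the difference itself with Benjamini-Hochberg adjustment. All values are differences of log2 fold changes. Against the mean of the other diets they were 6.194 for Fam177a, 5.448 for Nudt16l1, -2.072 for Phlda1, -2.914 for Cish, -3.849 for Ighv1-50 and -4.706 for Pmaip1. Against the fasted mice they were 6.088 for Fam177a, 7.345 for Nudt16l1 and -1.046 for Paqr9.

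Against the sucrose fed mice they were 6.3 for Fam177a, 11.71 for Rprd2, 1.309 for Acsl3 and -1.074 for Nnmt. They were -5.555 for Nlrp12, -7.379 for Ighv1-50, -6.597 for the immunoglobulin gene Ighg1 and -5.824 for the immunoglobulin pseudogene Igkv11-106. For the pseudogenes they were -4.258 for Gm13456, -5.934 for Gm9457, -5.468 for Gm4883, -5.445 for Gm21399 and -5.456 for Rps12-ps24. These 5 pseudogenes and the 3 immunoglobulin genes were at 0 to 7.02 in the sucrose fed control mice and at 33.7 to 196 in the sucrose fed MED13-LKO mice, and their fructose values lay between. Rprd2 was listed at 0 in both fructose fed and both fasted control mice and in both sucrose fed MED13-LKO mice. Fam177a was listed at 0 in both fructose fed control mice and was at 53.3 to 119 in the other 10 mice.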

How the results depend on the processing

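A pseudocount of 0.1 or of 10, testing all genes without a floor, equal 75th percentiles, and a fit of protein-coding genes alone kept all counts within 1.5 times of those given, except that the protein-coding fit called 1 gene for the departure from the other diets in place of 6. Fitting only the 4 fructose libraries gave 163 calls (80 higher and 83 lower, 131 of them above 1 on the log2 scale), 31 among list genes (11 higher and 20 lower) and 16 of the 30 largest changes. Equal sums gave 3465 calls (3238 higher and 227 lower, 761 above 1), and 168 among list genes (122 higher and 46 lower). With genes that share at least 10% of their sequence left out, 323 genes were called lower, 240 exceeded 1, list calls were 71 (17 higher), 13 of the 30 largest changes were called, 2 of them under both other diets, and 0 genes departed from the other diets.

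Fits with the replicate number as a block gave 832 calls, 399 higher and 433 lower, and 1 gene for the departure from the other diets. The deviations of same-numbered fructose mice from their group means correlated at -0.142 over genes, and those of the fasted and sucrose fed mice at -0.0181 and -0.0266. Crossing the numbers gave 919 calls and 1 for the departure. Leaving out each mouse gave 328 to 1056 calls (133 to 518 higher, 195 to 538 lower, 196 to 492 above 1), 53 to 117 among list genes (13 to 40 higher, 40 to 77 lower), 23 to 27 of the 30 largest changes, 15 to 18 of them under both other diets, and 3 to 64 for the departure, the last without control mouse 2. A group left with 1 mouse is assumed to vary like the other groups.

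Of 166 genes named, 101 were called. Of these, 47 stayed called whichever mouse was left out, 39 with only the 4 fructose libraries, 85 with equal sums and 94 with the block. None of the called genes changed direction under any setting tried. Among those not called, the log2 fold change crossed 0 with equal sums for Acsl3 0.12, Cpt1a 0.17, Cyp4a12a 0.081, Eif2s3y 0.15, Fasn 0.12, Gys2 0.087, Hspa5 0.16, Ighv1-50 0.026, Insr 0.12, Nnmt 0.28, Pgam1 0.31, Slc25a1 0.25 and Tpi1 0.24, of which Pgam1, Slc25a1 and Tpi1 then passed the test. With 1 mouse left out it crossed 0 for Aldoa -0.077 to 0.15, Atf6 -0.048 to 0.22, Cpt1a -0.38 to 0.083, Cyp1a2 -0.056 to 0.27, Cyp4a12a -0.80 to 0.32, Fads2 -0.057 to 0.24, Fasn -0.41 to 0.0016, Gm21399 -0.014 to 0.72, Hspa5 -0.78 to 0.46, Ighg1 -1.02 to 0.033, Igkv11-106 -0.10 to 0.24, Irs2 -0.19 to 0.28, Jak2 -0.11 to 0.26, Med13 -0.014 to 0.62, Mlx -0.10 to 0.21, Nnmt -0.15 to 0.057, Pck1 -2.09 to 0.60, Rps12-ps24 -0.33 to 0.44, Sqle -0.054 to 0.61, Stat5b -0.28 to 0.40 and Tm7sf2 -0.016 to 0.19. The causes were not tested. No raw counts were used, so the depth of each library is unknown.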
